A study of Homo sapiens with 18 samples.

Results

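MTORC1 inhibitor genes were examined in the human colon cancer cell lines HT-29 and HCT116 after Erastin (ER), a small molecule that blocks cystine uptake and so triggers ferroptosis, an iron-dependent form of cell death. The 10 genes were DDIT4, DDIT4L, SESN1, SESN2, SESN3, TSC1, TSC2, DEPTOR, AKT1S1 and GRB10. They were chosen by name from the 33616 genes that have a transcript of their own on the array. Earlier results of these data were known at that choice, so counts of members beside all transcripts are descriptions and not a test. Where a gene had several such transcripts, the one with the highest mean signal over the 18 arrays stood for it. RNA came from 6 groups of 3 arrays: each line was left untreated or was given 2.5 µM ER for 4 h or for 24 h. No engineered change is stated for either line, and each has a single untreated group that is compared with both times. No vehicle and no time in culture are stated for it, so a change after ER and a change with either of these cannot be told apart. The methods give 3 independent experiments, and the labels number the replicates 1 to 3 in each group.

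All values are deposited log2 signals per transcript. A level of a gene is comparable between arrays of a line but not between genes, whose probes differ, and levels were not tested between the lines, which the methods normalized separately. A fold was taken as 2 to the power of a difference, and its scale is in doubt because values ran up to 19.92, past the 16 that a 16-bit scanner signal reaches. A transcript was counted as differentially expressed (DET) where its fold was at least 1.2 in either direction and its unadjusted limma p at most 0.005, as the methods set these thresholds, and it was called after correction where the Benjamini-Hochberg adjusted p over all 135750 transcripts was under 0.05. The median transcript had a mean signal of 5.491, a rough guide only, since probes differ. Of 9 colon epithelial markers, EPCAM, KRT8, KRT18, KRT19 and CDH1 lay between 10.04 and 18.31 in every array, and CDX2 averaged 8.10 to 9.30. VIL1, a microvillus protein, averaged 5.59 in HCT116, and LYZ, which encodes lysozyme, 5.84. In HT-29 the arrays of replicate 1 stood apart from those of replicates 2 and 3. LYZ averaged 17.12 in them against 10.34 and 11.24. KRT20, a keratin of differentiated cells, averaged 14.15 against 8.68 and 9.02, with 7.30 in HCT116, and VIL1 8.29 against 5.74 and 6.22. CDH1 averaged 13.20 against 11.20 and 11.66, with 11.20 in HCT116. CDX2 went the other way, at 8.10 against 8.90 and 9.30, with 9.04 in HCT116. KRT19 was close, at 14.93 against 15.01 and 15.30. For each of the 9 markers, replicates 2 and 3 averaged nearer to HCT116 than to replicate 1, across lines that were normalized separately. The margin was small for KRT19, at 15.06 in HCT116. LYZ in replicates 2 and 3 stayed far above its 5.84 in HCT116. The reason was not tested, and the labels were kept as given. Values without the HT-29 arrays of replicate 1 are given beside each call that they change and together after the comparisons.

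MTORC1 is a protein kinase complex that works at the lysosome surface, where it drives protein synthesis and holds back autophagy while amino acids and growth factors are plentiful. Growth factor signals reach it through the small GTPase RHEB, which TSC1 and TSC2 together switch off, and amino acid signals reach it through the Rag GTPases, which the sestrins restrain by binding the GATOR2 complex. DDIT4 and its relative DDIT4L act through TSC2, DEPTOR and AKT1S1 bind MTORC1 itself, and GRB10 is an adaptor that dampens insulin receptor signalling and is a substrate of MTORC1. In other settings DDIT4 and SESN2 are known as genes that transcription factors of the stress response, ATF4 among them, switch on.

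Promoters of DDIT4, SESN2 and GRB10, the members with higher DETs, are shown so that they can be set side by side, and that of TSC2 for its match to the motif of ATF4. RefSeq windows of assembly GRCh38.p14, running from 250 bases before to 50 bases after a gene start, were found for 8 of the 10 members, 15 windows in all. DEPTOR and AKT1S1 had none in the table used. The motifs were searched on both strands: TGATGNAA, the core of the C/EBP-ATF response element, ACGTG, the core of the hypoxia response element, GTAAACA, a FOXO motif, and CCAAT. Capitals mark the matches, and a CCAAT on the opposite strand reads ATTGG. The windows lie at chr10:72273674-72273973 (plus strand) for DDIT4, chr1:28259268-28259567 (plus strand) for SESN2, chr7:50782847-50783146 (minus strand) for GRB10, where it is the only window of 5 with a match, and chr16:2047735-2048034 (plus strand) for TSC2, where it is the only member window with TGATGNAA.
DDIT4: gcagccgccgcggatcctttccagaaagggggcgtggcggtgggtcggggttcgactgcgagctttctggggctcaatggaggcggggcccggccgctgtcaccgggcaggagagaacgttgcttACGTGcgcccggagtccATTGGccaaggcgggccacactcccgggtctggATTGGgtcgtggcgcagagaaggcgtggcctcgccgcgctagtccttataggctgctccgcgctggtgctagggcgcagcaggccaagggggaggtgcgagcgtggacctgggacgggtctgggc
SESN2: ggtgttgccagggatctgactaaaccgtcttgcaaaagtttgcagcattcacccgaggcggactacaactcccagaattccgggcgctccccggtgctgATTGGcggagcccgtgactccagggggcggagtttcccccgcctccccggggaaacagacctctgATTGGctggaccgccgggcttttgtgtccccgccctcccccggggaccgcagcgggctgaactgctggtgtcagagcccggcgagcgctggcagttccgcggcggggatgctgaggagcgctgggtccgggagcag
GRB10: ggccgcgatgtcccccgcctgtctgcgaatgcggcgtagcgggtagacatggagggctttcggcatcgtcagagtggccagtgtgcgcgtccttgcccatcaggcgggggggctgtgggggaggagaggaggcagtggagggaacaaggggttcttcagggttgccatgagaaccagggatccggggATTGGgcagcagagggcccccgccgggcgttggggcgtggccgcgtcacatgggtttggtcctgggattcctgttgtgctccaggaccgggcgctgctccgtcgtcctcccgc
TSC2: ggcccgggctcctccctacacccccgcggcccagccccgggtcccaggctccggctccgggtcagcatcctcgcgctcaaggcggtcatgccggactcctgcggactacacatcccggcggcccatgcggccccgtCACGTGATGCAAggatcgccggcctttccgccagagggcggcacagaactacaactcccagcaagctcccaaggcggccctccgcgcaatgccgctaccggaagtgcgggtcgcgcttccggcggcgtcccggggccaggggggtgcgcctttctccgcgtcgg
With the start counted as 0, the DDIT4 window held ACGTG at -125 to -121 and CCAAT on the opposite strand at -108 to -104 and -75 to -71. SESN2 held CCAAT on the opposite strand at -151 to -147 and -86 to -82, and GRB10 held it at -63 to -59. In TSC2 the TGATGNAA match at -110 to -103 overlapped ACGTG at -113 to -109, which overlapped another ACGTG on the opposite strand at -114 to -110. Among all 35116 RefSeq windows of this length, CCAAT occurred in 34.6%, ACGTG in 21.4%, TGATGNAA in 3.62% and GTAAACA in 3.42%. SESN1 had CCAAT in 2 of its 3 windows, and the windows of DDIT4L, SESN3 and TSC1 held none of the motifs. A match is a run of letters and not a shown binding site.

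After 24 h of ER, DDIT4 and GRB10 were higher in both lines and SESN2 was higher in HT-29, whereas SESN1, SESN3, TSC1, TSC2, DDIT4L, DEPTOR and AKT1S1 did not pass the DET thresholds in either line. In HT-29 cells 3 of the 10 members were DETs and higher at 24 h, beside 0.233% of all transcripts and 0.687% of the 33616 genes in either direction, and 0 were lower, beside 0.144% of transcripts. In HCT116 cells 2 were higher, beside 0.824% of all transcripts and 2% of the genes in either direction, and 0 were lower, beside 0.413%. DDIT4 was the only member called after correction against the untreated group in either line, where 2.21e-03% of transcripts were called in HT-29 and 8.1e-03% in HCT116. The median log2 change over the 10 members was 0.51 in HT-29 and 0.64 in HCT116, and over all transcripts it was 0.02 and -0.02. Each 24 h array lay above each untreated array for 5 members in HT-29, against 5.12% of all transcripts, and for 5 in HCT116, against 5.94%. No member lay wholly below, against 4.55% and 6.83%.

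**Figure D1:**
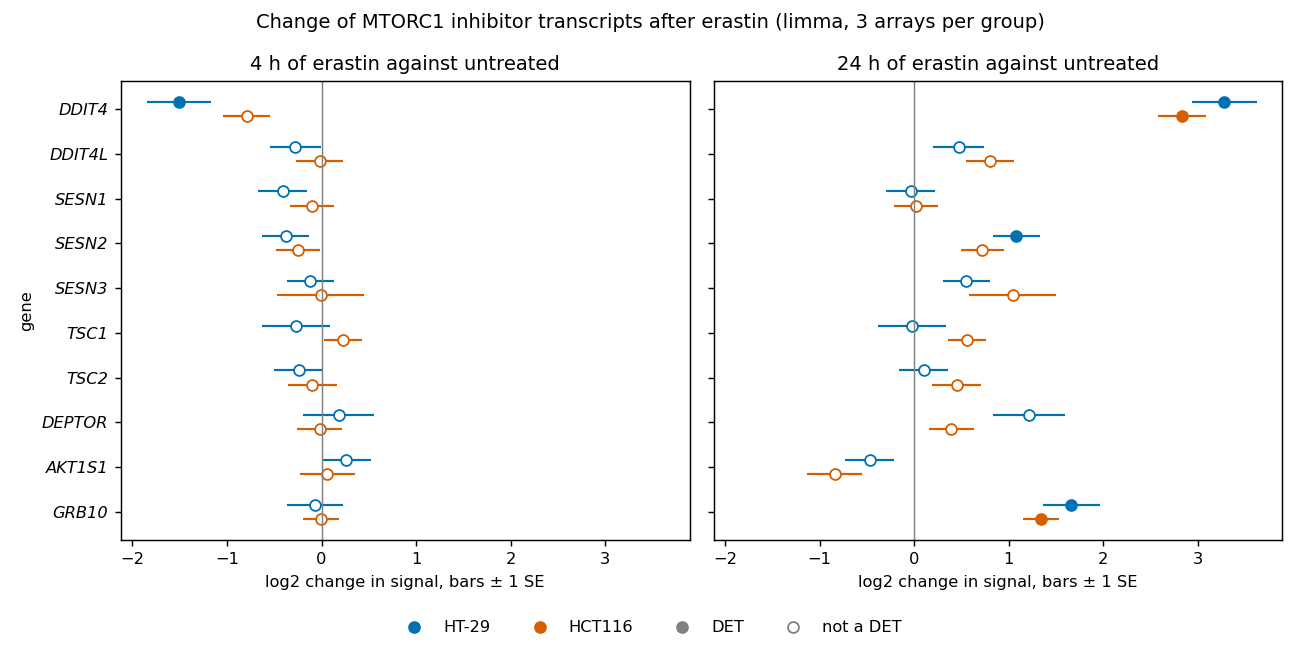
Log2 change in signal of the 10 MTORC1 inhibitor transcripts after 4 h (left) and 24 h (right) of ER against untreated cells, with bars of 1 SE from limma, blue for HT-29 and orange for HCT116, and filled points for DETs. In HT-29 DDIT4 stood at -1.51 at 4 h and 3.28 at 24 h, and in HCT116 at -0.79 and 2.83.

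DDIT4, the inhibitor that acts by way of TSC2, had the largest change of the 10 members at both times. In HT-29 its signal in replicates 1, 2 and 3 was 9.40, 10.77 and 10.37 untreated, 8.86, 8.34 and 8.80 after 4 h of ER, and 13.10, 13.58 and 13.72 after 24 h. All 3 groups were apart, with 4 h the lowest and 24 h the highest, and the untreated array of replicate 1 lay nearest to the 4 h arrays. The 24 h change was 3.28 (SE 0.34), a fold of 9.74, with a limma adjusted p of 0.0334. In cultures measured whole, a change in every cell and a change in some of them cannot be told apart. In HCT116 the signal was 10.30, 9.46 and 9.85 untreated, 8.76, 9.11 and 9.37 after 4 h, and 12.77, 12.45 and 12.88 after 24 h. The order of the groups was the same and none of them overlapped, although the highest 4 h array and the lowest untreated array were close. The 24 h change was 2.83 (SE 0.25), a fold of 7.11, with a limma adjusted p of 3.14e-03.

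The DDIT4 change at 24 h was a DET under every alternative tried in both lines. Its adjusted p in HT-29, however, was under 0.05 in 11 of 21 alternatives. It was 0.0995, 0.0531 and 0.155 without the untreated arrays of replicates 1, 2 and 3, 0.0913 and 0.0859 without the 4 h arrays of replicates 2 and 3, and 0.295 and 0.266 without the 24 h arrays of replicates 2 and 3. Without all arrays of replicate 1 the limma adjusted p was 0.0606, and with only the compared arrays in the fit 0.123. With the methods' t-test the adjusted p was 0.973. The log2 change stayed between 2.90 and 3.58 over all 21. In HCT116 the adjusted p was under 0.05 in 19 of 20 alternatives, the exception being the methods' t-test at 0.569, and the change ran from 2.63 to 3.04.

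At 4 h DDIT4 was the only member to pass the DET thresholds, and it was lower. Its change in HT-29 was -1.51 (SE 0.34, limma adjusted p = 1), a DET, so its mean signal was 2.85-fold lower than in untreated cells. In HCT116 the change was -0.79 (SE 0.25, limma adjusted p = 1), which missed the DET threshold, although every 4 h array lay below every untreated array. Without the untreated array of replicate 2, the highest of its group, the HT-29 change was -1.22 and no longer a DET, and with the methods' t-test it was not a DET either. Without the untreated array of replicate 2 in HCT116, the lowest of its group, the change there was -0.99 and became a DET.

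None of the other members was a DET at 4 h. In HT-29 their changes ran from -0.41 for SESN1 to 0.26 for AKT1S1, and in HCT116 from -0.25 for SESN2 to 0.23 for TSC1. Thus 1 member was a DET and lower in HT-29, beside 0.0766% of all transcripts, and 0 were higher, beside 0.147%. In HCT116 0 were higher and 0 lower, beside 0.116% and 0.175%. Of the 33616 genes, 0.161% in HT-29 and 0.211% in HCT116 were DETs in either direction. None of the members and 0% of all transcripts were called after correction in either line, and 1 member, DDIT4, had an unadjusted p under 0.05 in each, beside 3.51% of transcripts in HT-29 and 3.85% in HCT116. The groups did not overlap for DDIT4, which was lower, in both lines, where 2.91% and 5.53% of transcripts were wholly lower. AKT1S1 was wholly higher in HT-29 alone, by 0.26, where 4.95% of transcripts in HT-29 and 4.49% in HCT116 were wholly higher. The median change over the members was -0.26 in HT-29 and -0.02 in HCT116, and over all transcripts 0.04 and -0.02.

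**Figure D2:**
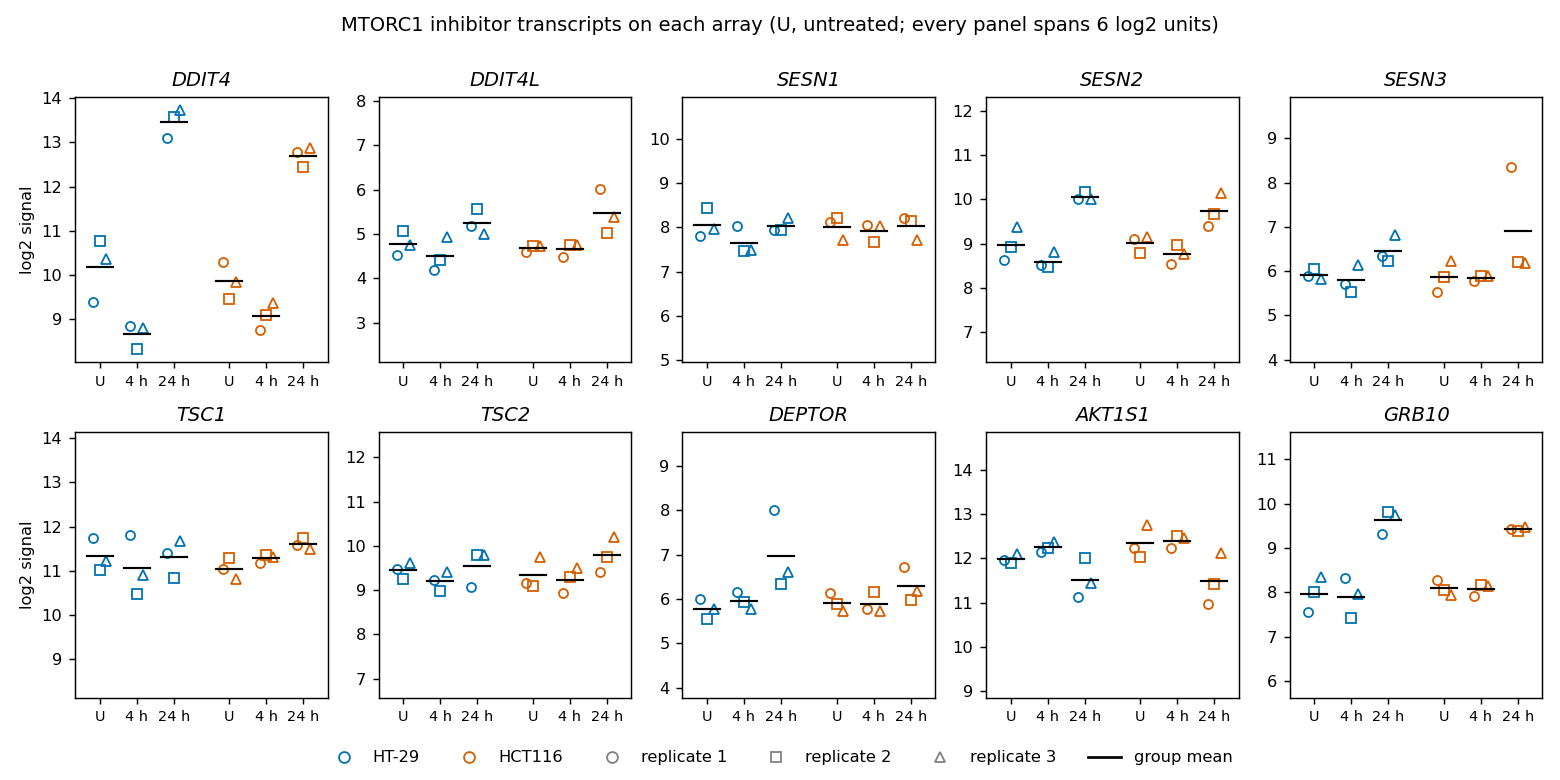
Log2 signal of each member on each of the 18 arrays, untreated (U), after 4 h and after 24 h of ER, blue for HT-29 and orange for HCT116, with the marker shape giving the replicate and a line at the group mean; every panel spans 6 log2 units. DDIT4 fell to 8.34 to 8.86 at 4 h in HT-29 and rose to 13.10 to 13.72 at 24 h, and the single high points of SESN3 (8.36, HCT116) and DEPTOR (8.0, HT-29) stand apart from the other 24 h arrays.

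Of the sestrins, SESN2 was a DET at 24 h in HT-29, and SESN1 and SESN3 were not DETs in either line. SESN2, which binds leucine and restrains GATOR2, had signals in HT-29 of 8.63, 8.93 and 9.38 untreated, 8.51, 8.47 and 8.81 after 4 h, and 10.02, 10.17 and 10 after 24 h. The 24 h arrays were close together and above all others, while the untreated and 4 h arrays overlapped. The change at 24 h was 1.08 (SE 0.25), a fold of 2.12, which was a DET with a limma adjusted p of 1. It was no longer a DET without the untreated array of replicate 1, at 0.91 (SE 0.27), without all 3 arrays of replicate 1, at 0.93 (SE 0.32), or with the methods' t-test.

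In HCT116 the SESN2 signal was 9.10, 8.78 and 9.16 untreated, 8.55, 8.98 and 8.76 after 4 h, and 9.40, 9.66 and 10.14 after 24 h. Here too the 24 h arrays lay above all others, though with a wider spread. The change was 0.72 (SE 0.23, limma adjusted p = 0.442), short of the DET threshold, and without the 24 h array of replicate 1 it was 0.89 (SE 0.24) and a DET.

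SESN1, a sestrin known as a target of p53, stayed between 7.47 and 8.43 in all 18 arrays. Its change at 24 h was -0.04 (SE 0.26) in HT-29 and 0.02 (SE 0.23) in HCT116, and the arrays of the groups overlapped in both. SESN3, a sestrin known as a FOXO target, had signals of 5.83 to 6.04 untreated and 6.24 to 6.81 after 24 h in HT-29, a change of 0.55 (SE 0.25, not a DET) with no overlap. In HCT116 its 24 h signals were 8.36, 6.20 and 6.18 against 5.53, 5.86 and 6.22 untreated. Replicate 1 alone stood high, the other 24 h arrays lay within the untreated range, and the change of 1.04 (SE 0.46), not a DET, ran from 0.32 to 1.41 over the alternatives. Another SESN3 transcript of lower mean signal changed by -0.04 (SE 0.33) in HT-29 and 0.62 (SE 0.37) in HCT116 and was not a DET.

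GRB10, the adaptor at the insulin receptor, rose in both lines. In HT-29 its signal was 7.56, 8.01 and 8.34 untreated, 8.32, 7.42 and 7.96 after 4 h, and 9.32, 9.82 and 9.75 after 24 h. In HCT116 it was 8.29, 8.06 and 7.93 untreated, 7.92, 8.17 and 8.14 after 4 h, and 9.43, 9.39 and 9.47 after 24 h. The 24 h arrays were above all others in each line, and the untreated and 4 h arrays were intermixed. The 24 h change was 1.66 (SE 0.30), a fold of 3.16, in HT-29 (limma adjusted p = 0.603) and 1.34 (SE 0.19), a fold of 2.53, in HCT116 (limma adjusted p = 0.0909). Both were DETs under every alternative tried, with changes from 1.45 to 1.84 and from 1.24 to 1.44. The adjusted p in HCT116 was under 0.05 in 2 of 20 alternatives and reached 0.569 with the methods' t-test. Those 2 were limma fits, at 0.0128 where only the transcripts of a single gene were tested and 0.0113 with means per gene. In HT-29 it was under 0.05 in 1 of 21.

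DDIT4L, the relative of DDIT4, had a mean signal of 4.89 over the 18 arrays and was not a DET in either line. Its signals at 24 h were 5.17, 5.56 and 5.0 in HT-29, against 4.53, 5.06 and 4.75 untreated, and 6.02, 5.02 and 5.39 in HCT116, against 4.59, 4.72 and 4.73. The groups overlapped in HT-29, and in HCT116 every 24 h array was higher. The changes were 0.47 (SE 0.27) and 0.80 (SE 0.25). In HCT116 the change became a DET without the 24 h array of replicate 2, at 1.02 (SE 0.24), and with means per gene, at 0.80 (SE 0.24).

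The subunits of the TSC complex were not DETs at 24 h in either line. TSC1, which holds the complex together, had 24 h signals of 11.41, 10.84 and 11.67 in HT-29 against 11.74, 11.02 and 11.23 untreated, a change of -0.02 (SE 0.36). In HCT116 it had 11.58, 11.75 and 11.49 against 11.04, 11.28 and 10.81. These did not overlap, and the change was 0.56 (SE 0.20), not a DET. TSC2, the subunit that switches RHEB off, changed by 0.10 (SE 0.26) in HT-29 and 0.45 (SE 0.26) in HCT116, with overlapping arrays in both. Another TSC1 transcript, of lower mean signal, changed by 0.24 (SE 0.47) and 0.81 (SE 0.26) and was not a DET.

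The inhibitors that bind MTORC1 did not pass the DET thresholds in either line. DEPTOR, which binds the kinase MTOR, had signals in HT-29 of 5.99, 5.54 and 5.78 untreated and 8.0, 6.33 and 6.61 after 24 h. The groups did not overlap, but replicate 1 was far above the other 24 h arrays. The change was 1.21 (SE 0.38, limma adjusted p = 1). It was 0.81 (SE 0.30) without the arrays of replicate 1, and without the 24 h array of replicate 2, the lowest, it was 1.54 (SE 0.38) and a DET. In HCT116 DEPTOR had 6.73, 5.98 and 6.19 against 6.13, 5.88 and 5.73, overlapping, with a change of 0.39 (SE 0.24).

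AKT1S1, a substrate of AKT that inhibits MTORC1, was the only member with a lower mean at 24 h in both lines against untreated and against 4 h. Its signals in HT-29 were 11.97, 11.89 and 12.10 untreated, 12.14, 12.24 and 12.37 after 4 h, and 11.12, 12 and 11.44 after 24 h. In HCT116 they were 12.24, 12.04 and 12.74 untreated, 12.23, 12.51 and 12.45 after 4 h, and 10.96, 11.42 and 12.11 after 24 h. At 24 h the arrays of both lines lay below every 4 h array, and overlapped the untreated ones. The change against untreated was -0.47 (SE 0.26) in HT-29 and -0.84 (SE 0.29) in HCT116, and neither was a DET. Without the arrays of replicate 1 the HT-29 change was -0.27 (SE 0.32). Without the 24 h array of replicate 3, the highest of its group, the HCT116 change was -1.15 (SE 0.26) and a DET. Another AKT1S1 transcript, of lower mean signal, changed by -0.22 (SE 0.42) and -0.21 (SE 0.25) at 24 h and was not a DET.

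Set against 4 h instead of untreated cells, the 24 h arrays gave the same 3 DETs in both lines, namely DDIT4, SESN2 and GRB10, all higher. The background of higher DETs was 0.517% of all transcripts in HT-29 and 1.26% in HCT116, and 0 members were lower, beside 0.389% and 0.785%. Of the 33616 genes, 1.68% in HT-29 and 3.61% in HCT116 were DETs in either direction. DDIT4 differed by 4.80 (SE 0.34) in HT-29, a fold of 27.8, and by 3.62 (SE 0.25) in HCT116, a fold of 12.3, with limma adjusted p of 8.16e-04 and 5.6e-04. The SESN2 differences were 1.47 (SE 0.25) in HT-29 and 0.97 (SE 0.23) in HCT116, at limma adjusted p of 0.138 and 0.157. For GRB10 they were 1.73 (SE 0.30) and 1.35 (SE 0.19), at limma adjusted p of 0.148 and 0.0283. After correction 1 member was called in HT-29, where 0.0228% of all transcripts were, and 2 in HCT116, where 0.0832% were. In each line 6 members lay wholly higher at 24 h than at 4 h, against 4.65% and 8.1% of transcripts, and AKT1S1 lay wholly lower, at -0.73 (SE 0.26) in HT-29 and -0.90 (SE 0.29) in HCT116, against 5.54% and 7.93%.

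These comparisons share arrays with those against untreated cells and are not further evidence of them. The GRB10 call in HCT116 was lost in 10 of 20 alternatives, among them the omission of the untreated array of replicate 2, at an adjusted p of 0.0521, of each 4 h array, at 0.157, 0.12 and 0.147, and of each 24 h array, at 0.0811, 0.0626 and 0.0625, for replicates 1, 2 and 3. The SESN2 difference in HCT116 was not a DET without the 4 h array of replicate 1, at 0.86 (SE 0.27), without the 24 h array of replicate 3, at 0.77 (SE 0.24), or with the methods' t-test. Without the 24 h array of replicate 2 in HT-29, DEPTOR (1.35, SE 0.38) and AKT1S1 (-0.97, SE 0.25) were DETs as well. Without the 24 h array of replicate 3 in HCT116, AKT1S1 was a DET (-1.21, SE 0.26), and without that of replicate 2 DDIT4L was (1.04, SE 0.24).

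The difference between the lines in the response to ER was tested as an interaction over all 18 arrays. At 4 h it was a DET for 0 of the 10 members, beside 0.277% of all transcripts, and at 24 h for 0, beside 0.322%. None were called after correction, where 0% of all transcripts were at either time, and 0 members had an unadjusted limma p under 0.05, where 3.78% and 3.6% of transcripts had. For DDIT4 the difference, HCT116 minus HT-29, was 0.73 (SE 0.44) at 4 h and -0.45 (SE 0.44), each with a limma adjusted p of 1. The smallest p at 24 h was that of DEPTOR, with -0.83 (SE 0.46). For SESN2 the difference at 24 h was -0.36 (SE 0.33) and for GRB10 -0.32 (SE 0.35). SESN2 was thus a DET at 24 h in HT-29 alone, but its change was not shown to differ between the lines.

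The HT-29 arrays of replicate 1, which carried the high LYZ signal, also had the lowest untreated DDIT4, SESN2 and GRB10 signals of that line. Without them, with 2 arrays per group, DDIT4 changed by -2.0 (SE 0.32, adjusted p = 0.32, limma) at 4 h and by 3.08 (SE 0.32, adjusted p = 0.0606, limma) at 24 h. GRB10 changed by 1.61 (SE 0.32) at 24 h and was still a DET, and at 4 h its change was -0.48 (SE 0.32) where all arrays gave -0.07 (SE 0.30). None of the other members was a DET against untreated cells without them. At 4 h SESN1 went from -0.41 to -0.72 (SE 0.31) and TSC1 from -0.27 to -0.44 (SE 0.36). At 24 h SESN1 went from -0.04 to -0.12 (SE 0.31), TSC1 from -0.02 to 0.12 (SE 0.36) and TSC2 from 0.10 to 0.35 (SE 0.32). Set against 4 h, the 24 h difference went from 1.03 to 0.62 (SE 0.30) for DEPTOR, from 0.37 to 0.60 (SE 0.31) for SESN1, from 0.25 to 0.57 (SE 0.36) for TSC1 and from 0.34 to 0.59 (SE 0.32) for TSC2. The interaction for DDIT4 at 4 h was then 1.21 (SE 0.40), with a limma p of 7.74e-03 unadjusted and 0.53 adjusted. It was not a DET, but its unadjusted p was under 0.05, as no member's was with all arrays. At 24 h the interaction was -0.25 (SE 0.40) for DDIT4 and -0.43 (SE 0.36) for DEPTOR. Marker lists of fibroblasts and of leukocytes or blood, each with 4 of 5 genes measured, had mean signals of 6.65 to 7.20 and of 6.28 to 6.91 over all arrays. Their highest genes were COL1A1, which averaged 9.21 to 9.38 over the HT-29 replicates and 9.31 in HCT116, and HBB, at 7.48 to 7.98 and 7.88. Levels are not comparable between genes, so no absence of a cell type is read from these means.

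**Figure D3:**
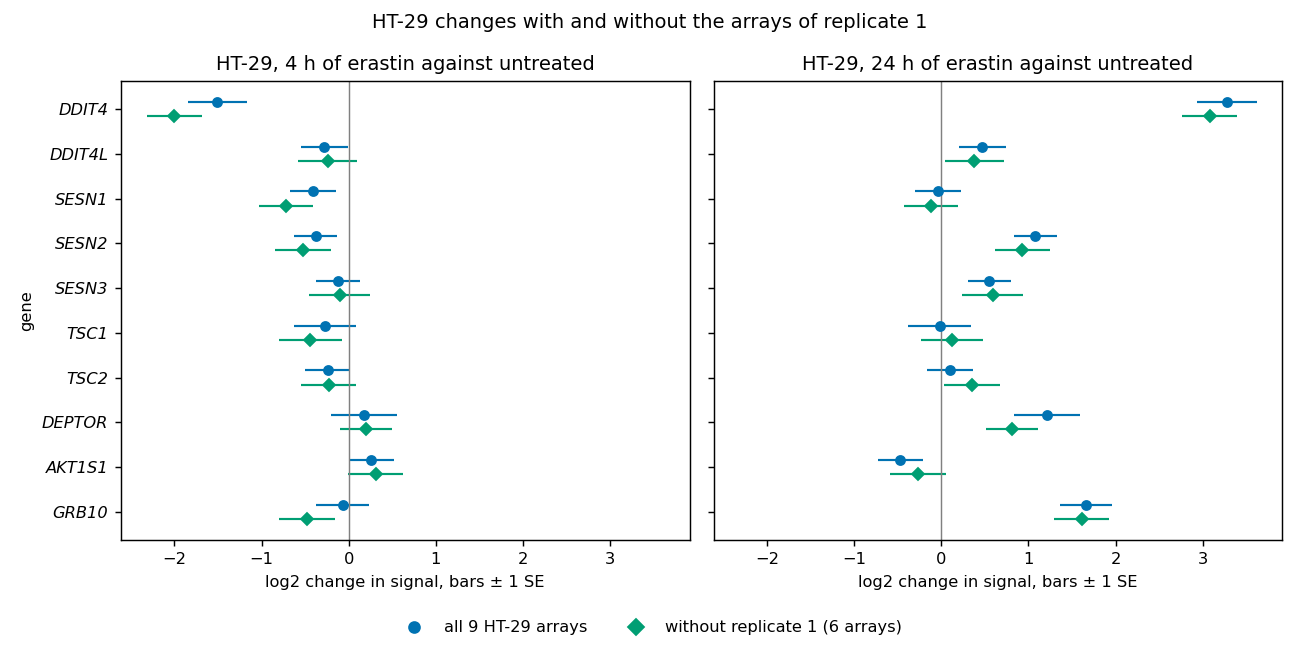
Log2 change in HT-29 at 4 h (left) and 24 h (right) of ER against untreated cells for the 10 members, with bars of 1 SE, for all 9 arrays (blue circles) and without the arrays of replicate 1 (green diamonds, 6 arrays). The 4 h value of DDIT4 moved from -1.51 to -2.0, and its 24 h value went from 3.28 to 3.08.

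Other genes of the pathway, 75 measured in 7 lists, were mostly not DETs. In HT-29 at 24 h 0 of the 75 passed in either direction, beside 0.687% of all 33616 genes, and their median change was -0.02. In HCT116 at 24 h 4 were higher and 1 was lower, beside 2% of all genes, with a median of 0.13. The higher ones were WDR59, a subunit of GATOR2 (1.00, SE 0.25), IGF1R and INSR, receptors for insulin-like growth factor and insulin (0.93, SE 0.21, and 0.70, SE 0.18), and ULK1, the autophagy kinase that MTORC1 inhibits (0.90, SE 0.22). SEH1L, also of GATOR2 and of the nuclear pore, fell by 1.08 (SE 0.21). None of the 5 was called after correction, with limma adjusted p from 0.18 to 0.348. The 10 genes of the MTOR complexes, with MTOR, RPTOR and RICTOR, had 0 DETs in any comparison and medians of -0.31 in HT-29 and -0.27 in HCT116 at 24 h.

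Within lists by role, the 13 genes of RHEB and growth factor input had 2 higher DETs in HCT116 at 24 h, the 5 genes of GATOR2 had 1 higher and 1 lower, and the 17 substrates and translation outputs had 1 higher. The 14 genes of Rag GTPases, Ragulator and amino acid sensors, the 6 of GATOR1 and KICSTOR and the 10 of AMPK and its kinases had 0. At 4 h 0 of the 75 were DETs in either line, beside 0.161% of all genes in HT-29 and 0.211% in HCT116. Against 4 h, where 3.61% of all genes were DETs in HCT116 and 1.68% in HT-29, the 24 h arrays of HCT116 had 7 higher and 2 lower. Among them were RRAGD, a Rag GTPase, at 0.89 (SE 0.20), and the AKT phosphatases PHLPP1, at 0.78 (SE 0.21), and PHLPP2, at -0.79 (SE 0.22). The 24 h arrays of HT-29 had 1, ULK1, at 1.35 (SE 0.25).

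**Figure D4:**
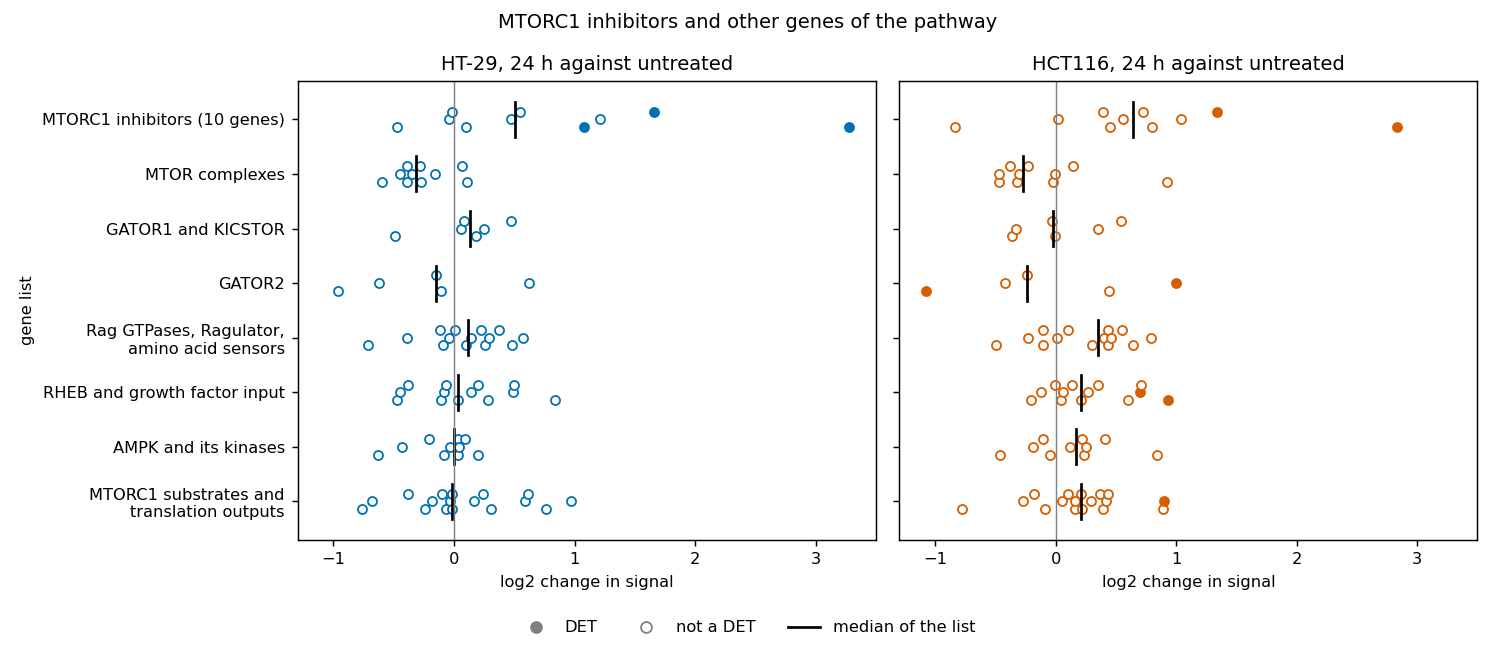
Log2 change at 24 h of ER against untreated cells for the 10 MTORC1 inhibitors and the 75 other pathway genes by list, in HT-29 (left) and HCT116 (right), with filled points for DETs and a black line at each list's median. The inhibitors had medians of 0.51 and 0.64, and outside them the only DETs were 5 in HCT116.

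Genes known to be switched on by the transcription factors that act on members in other settings were counted beside them, to be read against the DETs among all 33616 genes, 0.687% in HT-29 and 2% in HCT116 at 24 h, where the median change was 0.02 and 0.01. These lists were chosen with earlier results of these data known, so a count above that share is a description and not a test. Of 17 ATF4 targets, the members left out, 8 were DETs and higher in HT-29 at 24 h and 9 in HCT116, with medians of 1.02 and 0.89. CHAC1, which degrades glutathione, changed by 3.34 (SE 0.28) and 2.90 (SE 0.26), and PCK2, a mitochondrial enzyme that makes phosphoenolpyruvate, by 2.98 (SE 0.35) and 2.77 (SE 0.29). Of 13 p53 targets, 0 were higher and 1 was lower in HT-29 (AEN, a nuclease, at -1.06, SE 0.29), and 1 was higher in HCT116 (TP53INP1, a regulator of autophagy and cell death, at 1.91, SE 0.31). Of 11 hypoxia targets, 0 were DETs in HT-29 and 1 was higher in HCT116 (NDRG1, 1.36, SE 0.29). Of 10 FOXO targets, 3 were higher in HT-29 and 2 in HCT116, with CCNG2, an unusual cyclin, at 2.39 (SE 0.39) and 2.21 (SE 0.39) and PNRC1, a nuclear receptor coactivator, at 2.20 (SE 0.52) and 1.92 (SE 0.28). The third FOXO target in HT-29 was BCL6, a transcriptional repressor, at 0.79 (SE 0.22). At 4 h, where 0.161% and 0.211% of all genes were DETs, the ATF4, p53 and hypoxia targets had 0 in either line. The FOXO targets had 1 lower in HT-29, BCL6 at -1.27 (SE 0.22), and in HCT116 1 higher, the zinc finger transcription factor KLF6 at 0.97 (SE 0.24), and 1 lower, PNRC1 at -1.04 (SE 0.28).

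The transcripts with the profile most like that of DDIT4 over the 18 arrays, each line centred on its own mean, were ANKZF1, which works in ribosome quality control (Pearson r = 0.972), GDF15, a secreted stress cytokine (0.972), CHAC1 (0.961), FBXL20, an F-box protein (0.952), and CTDSP2, a phosphatase (0.95). Those most like SESN2 were TRIB3, a pseudokinase (0.946), INO80B-WBP1, a read-through transcript (0.945), NGEF, a guanine nucleotide exchange factor (0.945), DDIT4 (0.942) and CTDSP2 (0.94). Among members, r was 0.947 between DDIT4 and GRB10 and 0.911 between SESN2 and GRB10. It was 0.39 between DDIT4 and SESN1 and -0.715 between DDIT4 and AKT1S1. The 18 points share 6 groups and their treatment times, so these are descriptions with no test.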

How the data were processed

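RNA of 18 cultures was measured on Affymetrix whole-transcriptome arrays, 3 in each of 6 groups. The deposited values are log2 signals that the authors had normalized, in a table of 18 columns. Per the methods, they normalized each line on its own by RMA, summarized by the mean and took log2, and also used the array maker's software. Which of these made the table is not given in the sources used here. Values of non-control features ran from 2.306 to 19.92 and array medians from 5.437 to 5.614. Arrays correlated at 0.9455 to 0.9844 within a group and at 0.9339 to 0.9829 between the lines, and 0 pairs were identical. Of 138745 features, 2995 controls were left out. The platform annotation gives 36176 transcripts a single gene, 1119 several and 98455 none, and 25516 names were checked by gene ID against RefSeq (GRCh38.p14), with 0 changed.

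Under R 4.3.3, limma 3.58.1 was run (lmFit, then eBayes) on each line's 9 arrays, and the 3 groups were compared in pairs. For the difference between lines an interaction was taken over 18 arrays. P-values were adjusted over all 135750 transcripts. On arrays their number limits the precision: HT-29 had a median SE of 0.29 for a log2 change, and HCT116 of 0.24. The 10 members and the gene lists (11 lists, 136 genes) were chosen with earlier results of these data known. Named as DETs besides the members were some, not all, of the 4 DETs of smallest p in a list and comparison. The 5 genes most correlated with DDIT4 and with SESN2 were named as well. Of the list genes, 11 had no transcript of their own and were not analysed here. The alternatives were the methods' t-test (the permutation step they name with it was not run), other sets of arrays in the fit, a replicate block, a filter on low signal, single-gene transcripts, gene means, quantile normalization, median centring, other eBayes settings, HT-29 without replicate 1, and each array left out in turn. The fit was also run on simulated data with independent normal noise. Those data lack the difference between replicates seen in HT-29, so they do not show how the fit holds for these arrays. Tables were made with data.table (version 1.17.8), pandas 2.3.3 and numpy 2.4.6 (Python 3.11.15) and figures with matplotlib 3.10.9. Protein sequences, RT-PCR and viability data were not used here.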

Additional observations from a re-analysis of the deposited data

How the results depend on the processing

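Across the alternatives, 1802 comparisons of a member's change with its main value gave 8 lost DETs, 17 gained ones, 55 changes of sign in values that were not DETs, and 0 reversals of a DET. With the methods' t-test the members counted as DETs at 4 h in HT-29 went from 1 to 0. Leaving out 1 array at a time, that count ran from 0 to 1 in both lines at 4 h, from 2 to 4 in HT-29 and from 2 to 3 in HCT116 at 24 h, and from 3 to 5 and from 2 to 4 for 24 h against 4 h. For both differences between the lines it was 0 to 0. The cause of these changes was not tested. Quantile normalization and median centring left every count as it was.

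The methods' t-test also took the DET from DDIT4 at 4 h in HT-29, from SESN2 at 24 h in HT-29 and from SESN2 in HCT116 for 24 h against 4 h. In 1 fit of all 18 arrays, DEPTOR at 24 h in HT-29 (1.21, SE 0.33) and AKT1S1 for 24 h against 4 h in HCT116 (-0.90, SE 0.28) became DETs, and GRB10 in HT-29 was called after correction (limma adjusted p = 0.0231 at 24 h and 7.23e-03 against 4 h), as was SESN2 against 4 h (0.0171). DDIT4L fell below the filter on low signal and has no value there.

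The replicate numbers were not taken as pairs in the main fit, since the labels do not say that a number marks a shared experiment. Deviations of same-numbered arrays from their group means correlated at -0.148 to 0.5, over 0.1 in 10 of 18 pairs. Of the 18 arrays, 11 correlated best with their own number. In HT-29 the replicate 1 arrays shared the high LYZ signal, and their 4 h and 24 h deviations correlated at 0.5. The main fit leaves that shared difference in its spread. With the replicate number as a block, 4 members were DETs in HT-29 at 24 h and 3 in HCT116, and 3 and 4 for 24 h against 4 h. At 4 h there were 1 and 0, and 0 for the differences between lines. The DETs added by the block were DEPTOR in HT-29 (1.21, SE 0.31) and AKT1S1 in HCT116 (-0.84 at 24 h and -0.90 against 4 h, each with an SE of 0.24).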
